A study of Mus musculus with 10 samples.

Results

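Antibody and B cell transcripts were followed through RNA sequencing libraries of dendritic cells sorted from mouse spleen, a gate in which B cells and plasma cells are not meant to be present. The 10 genes described are Ighm, Ighd, Ighg2b, Ighg2c, Ighg3, Igkc, Jchain, Cd79a, Cd79b and Ms4a1, of 53379 genes counted in each library. They were chosen by name and selected on measured values, since their counts in these 10 libraries and their differences between genotypes were known when the list was made. Their values are therefore given as a description and support nothing by themselves. All 10 passed the filter on low counts that left 14528 genes for testing.

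Dendritic cells were enriched from digested spleens of individual mice with CD11c beads and the fraction with high MHC class II and CD11c was sorted in a CD11b-positive CD8-negative gate and a CD11b-negative CD8-positive gate. The mice were C57BL/6 and 16 weeks old, with the genotype Atg16l1 +/+ (WT) or Atg16l1 -/- (KO). Atg16l1 encodes a protein that directs the lipidation of LC3 on the autophagosome membrane. CD11b WT and CD8 WT held 3 libraries each and CD11b KO and CD8 KO 2 each, and a library is named here by its group and number. The series title places the mice in an atherogenesis model, but the labels name no diet or second allele, and they do not say which cells carry the deletion, which Cre or promoter was used, or whether both sorts of a number came from 1 mouse.

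A B cell joins V, D and J segments of the heavy chain locus to a constant gene, Ighm (IgM) and Ighd (IgD) first and, after class switching, an Ighg, Ighe or Igha gene, and pairs the product with a light chain whose constant part is encoded by Igkc or an Iglc gene. Cd79a and Cd79b encode the signalling chains that carry the receptor at the cell surface, and Ms4a1 encodes the B cell surface protein CD20. Plasma cells, which also live in the spleen, keep little CD20 and make large amounts of secreted antibody RNA, together with Jchain, the joining chain that links IgM and IgA units.

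The Ighg genes are near neighbours on chromosome 12 and resemble each other over much of their length, while their hinge exons, which encode the flexible stretch between the arms and the stem of the antibody, differ. The hinge exons are shown because the results turn on Ighg3 moving apart from the other Ighg genes, and the letters show how far a read can tell them apart. Sequences are exon 2 of the GENCODE M21 transcripts on GRCm38, minus strand, at chr12:113360529-113360576 (Ighg3, 48 bases), chr12:113329844-113329882 (Ighg1, 39 bases), chr12:113307261-113307326 (Ighg2b, 66 bases) and chr12:113288263-113288325 (Ighg2c, 63 bases). Capitals mark bases that lie in no run of 12 bases shared with transcripts of another Ighg gene.
Ighg3: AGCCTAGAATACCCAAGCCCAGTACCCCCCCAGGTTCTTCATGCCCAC
Ighg1: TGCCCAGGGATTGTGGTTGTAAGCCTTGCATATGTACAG
Ighg2b: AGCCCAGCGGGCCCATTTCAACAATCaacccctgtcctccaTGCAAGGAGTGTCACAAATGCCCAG
Ighg2c: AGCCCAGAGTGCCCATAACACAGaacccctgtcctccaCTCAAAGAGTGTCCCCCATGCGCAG
All 48 hinge bases of Ighg3 were in capitals, whereas Ighg2b and Ighg2c share a run with each other. Over the whole exons, 1.58% of the 50-base windows of Ighg3, 4.15% of those of Ighg2b and 5.49% of those of Ighg2c also occurred in another constant gene, and no 100-base window did. Ighm, Ighd and Igkc had no shared 50-base window. Reads that map to more than 1 place were not counted, so the Ighg values rest on the parts that differ.

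The libraries held 9467704 to 13768884 gene counts each. Levels are given in CPM, counts scaled to a common library total. Atg16l1 had 13.3 to 32.7 CPM in WT and 1.73 to 3.31 CPM in KO, so the genotype labels matched in all 10. The subset labels ran opposite to the markers in all 10: Cd8a was at 448 to 578 CPM and Itgam, which encodes CD11b, at 1.58 to 2.73 CPM in libraries labelled CD11b, while libraries labelled CD8 had 0.905 to 5.87 CPM of Cd8a and 76.1 to 104 CPM of Itgam. Xcr1 and Sirpa, markers of the CD8-type and CD11b-type cells, ran opposite to the labels in the same way. Labels are kept as given, and every direction below is between labels, not between named cell types. CD8 KO 2 stood apart for B cell transcripts. It was the highest of the 10 libraries for each of the 10 genes, at 1.56 (Ighg3) to 5.68 times (Ighg2c) the next highest library, and for 19 of 20 other B cell genes. Fold changes and counts of calls that rest on it are therefore also given without it.

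Ighm, the IgM heavy chain, was the most counted of the 10 genes in every library. It stood at 242, 201 and 193 CPM in CD11b WT 1 to 3 and at 198 and 417 CPM in CD11b KO 1 and 2. CD8 WT 1 to 3 gave 535, 325 and 193 CPM, and CD8 KO 1 and 2 gave 504.1 and 1242 CPM. KO and WT overlapped at both labels, with CD8 KO 2 far above the rest and CD8 WT 3 as low as the CD11b WT libraries. The log2 fold change of KO over WT was 0.54 ± 0.32 (SE) at the label CD11b, where it was −0.10 without CD11b KO 2, and 1.31 ± 0.31 at the label CD8, where it was 0.53 without CD8 KO 2.

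Ighd, the IgD heavy chain of mature naive B cells, had fewer counts than Ighm in every library, over nearly the same exon length. It stood at 1.44, 1.13 and 5.49 CPM in CD11b WT, 2.42 and 4.17 CPM in CD11b KO, 17.4, 3.62 and 2.84 CPM in CD8 WT, and 5.19 and 32.7 CPM in CD8 KO. The groups overlapped at both labels, and CD8 KO 1 lay inside the range of CD8 WT. The log2 fold change at the label CD8 was 1.26 ± 0.69 (SE) with all libraries and −0.61 without CD8 KO 2.

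Ighg3, the IgG3 heavy chain, was the member whose KO and WT libraries differed most at the label CD11b. It had 5, 2 and 1 counts in CD11b WT 1 to 3 (0.380, 0.151 and 0.0930 CPM) and 90 and 84 counts in CD11b KO 1 and 2 (9.08 and 7.00 CPM). CD8 WT 1 to 3 had 15.2, 6.52 and 3.03 CPM, and CD8 KO 1 and 2 had 15.2 and 23.8 CPM. Every CD11b KO library was above every CD11b WT library, and both lay within the range of CD8 WT, so the CD11b WT libraries are those that stood apart from the other 7. The log2 fold change was 5.16 ± 0.64 (SE) at the label CD11b, 4.86 to 5.89 when any 1 library was left out, and 1.24 ± 0.47 at the label CD8, or 0.88 without CD8 KO 2 and 2.02 without CD8 WT 1. The difference between the genotype effects was 3.92 ± 0.83 on the log2 scale.

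Ighg2b and Ighg2c, the other 2 IgG heavy chains among the members, did not follow Ighg3 at the label CD11b. Ighg2b stood at 2.96, 0.679 and 0.279 CPM in CD11b WT, 1.31 and 3.33 CPM in CD11b KO, 12.3, 16.0 and 2.55 CPM in CD8 WT, and 14.4 and 88.5 CPM in CD8 KO. Ighg2c stood at 0.152, 0.679 and 1.12 CPM in CD11b WT, 1.21 and 0.500 CPM in CD11b KO, 4.75, 3.44 and 0.0946 CPM in CD8 WT, and 2.06 and 27.0 CPM in CD8 KO. Both genes overlapped between genotypes at both labels, and CD8 KO 2 exceeded CD8 KO 1 by a ratio of 6.14 for Ighg2b and 13.1 for Ighg2c. Their log2 fold changes were 0.81 ± 0.82 and 0.40 ± 1.09 (SE) at the label CD11b, or −0.04 for Ighg2b without CD11b KO 2 and −0.34 for Ighg2c without CD11b KO 1. At the label CD8 they were 2.32 ± 0.62 and 2.40 ± 0.88, which became 0.49 and −0.42 without CD8 KO 2.

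Igkc, the kappa light chain constant gene, was the second most counted member in each library. It stood at 66.7, 54.2 and 35.6 CPM in CD11b WT, 41.8 and 146 CPM in CD11b KO, 225, 142 and 104 CPM in CD8 WT, and 224 and 697 CPM in CD8 KO. CD11b KO 1 lay inside the CD11b WT range and CD8 KO 1 inside the CD8 WT range, while the second KO library of each label was above all WT libraries of that label. The log2 fold changes were 0.85 ± 0.40 (SE) at the label CD11b, where CD11b KO 2 decided the sign (−0.32 without it), and 1.55 ± 0.38 at the label CD8, or 0.52 without CD8 KO 2.

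Jchain, the joining chain, was the only member whose KO libraries both lay above every WT library at the label CD8. It stood at 27.1, 26.2 and 19.1 CPM in CD8 WT and at 28.4 and 55.2 CPM in CD8 KO, so CD8 KO 1 cleared the highest WT library by a small margin. CD11b WT gave 6.68, 14.2 and 15.3 CPM and CD11b KO 8.58 and 23.5 CPM, which overlapped. The log2 fold change at the label CD8 was 0.79 ± 0.35 (SE), or 0.24 without CD8 KO 2.

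Cd79a and Cd79b, the signalling chains of the B cell receptor, were low at the label CD11b in both genotypes. Cd79a stood at 1.75, 1.96 and 1.30 CPM in CD11b WT, 1.21 and 1.83 CPM in CD11b KO, 13.0, 7.24 and 5.02 CPM in CD8 WT, and 8.15 and 43.7 CPM in CD8 KO. Cd79b stood at 0.987, 3.39 and 3.72 CPM in CD11b WT, 1.72 and 2.92 CPM in CD11b KO, 9.94, 8.87 and 11.0 CPM in CD8 WT, and 9.39 and 32.1 CPM in CD8 KO. For both genes every library labelled CD11b was below every library labelled CD8, and CD8 KO 1 sat among the CD8 WT libraries. The log2 fold changes at the label CD11b were −0.13 ± 0.61 and −0.20 ± 0.54 (SE). At the label CD8 they were 1.63 ± 0.49 and 1.06 ± 0.46, against −0.04 and −0.07 without CD8 KO 2.

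Ms4a1, which encodes CD20, had a pattern of its own. It stood at 18.5, 15.0 and 19.8 CPM in CD11b WT, 8.78 and 12.7 CPM in CD11b KO, 21.8, 14.2 and 9.75 CPM in CD8 WT, and 14.2 and 55.0 CPM in CD8 KO. At the label CD11b both KO libraries lay below all WT libraries, a log2 fold change of −0.72 ± 0.40 (SE), and in WT the labels overlapped. At the label CD8 the log2 fold change was 1.19 ± 0.38, or −0.09 without CD8 KO 2.

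**Figure D1:**
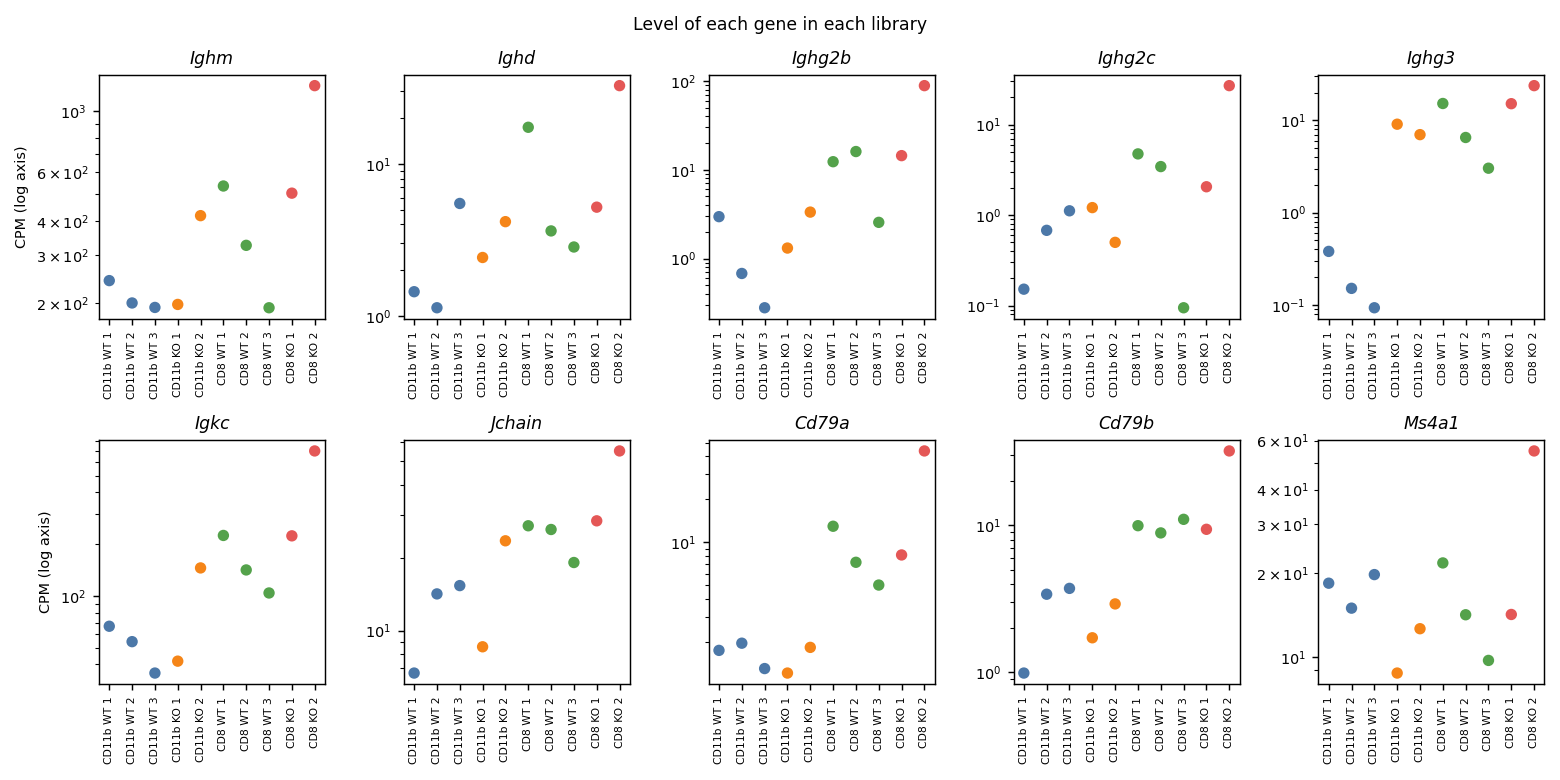
Level of each of the 10 genes in each library, in CPM on a log axis, with 1 point per library coloured by group and a separate scale for each gene. CD8 KO 2 is the highest point in every panel, and for Ighg3 the 3 CD11b WT libraries lie below 0.380 CPM or at it while the other 7 lie at 3.03 CPM or above.

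By the test across all genes, edgeR's quasi-likelihood test with Benjamini-Hochberg adjusted p under 0.05, 1 of the 10 genes (Ighg3) was called between genotypes at the label CD11b, where 0.145% of all genes tested were called in either direction. With limma-voom 0 of the 10 were called there, beside 15 of the 14528 genes. At the label CD8, edgeR called 0 of 10 (9 had an unadjusted p under 0.05), beside 0.145% of all genes. The share of all genes with an unadjusted p under 0.05 was not counted, so such counts, here and below, have no background to be read against. DESeq2 called 0 of 10 there, beside 59 of the 14528 genes, and limma-voom 2, beside 63. For the difference of the genotype effects edgeR called 0 of 10 (3 at an unadjusted p under 0.05), beside 0.0206%. DESeq2 called 1 (Ighg3), beside 12 of the 14528 genes, and limma-voom 0, beside 4. At the label CD11b, KO lay above WT without overlap for Ighg3, as it did for 10.3% of all genes, and below WT for Ms4a1, as for 10.1%. For Jchain KO lay above WT at the label CD8, as for 12.1% of all genes.

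The median log2 fold change over the 10 genes was 0.41 at the label CD11b, with 7 above 0, and 1.29 at the label CD8, with all 10 above 0, beside −0.01 and 0.00 over all genes tested. Without CD8 KO 2 the median at the label CD8 was 0.10, with 5 of 10 above 0, and without CD8 KO 1 it was 1.95. Leaving CD8 KO 1 out raised the number called from 0 to 5, all higher, beside 0.262% of all genes called higher in that fit. At the label CD11b the median was −0.22 without CD11b KO 2, with 2 of 10 above 0, 0.81 without CD11b KO 1 and 0.08 without CD11b WT 1. There 8 of the 10 genes changed sign when some 1 library was left out, and Ighg3 and Ms4a1 did not. Each fit that leaves out a KO library rests on 1 KO library at that label, which was assumed to vary like the others. In bulk libraries, fewer cells of a type and less RNA per cell cannot be told apart.

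**Figure D2:**
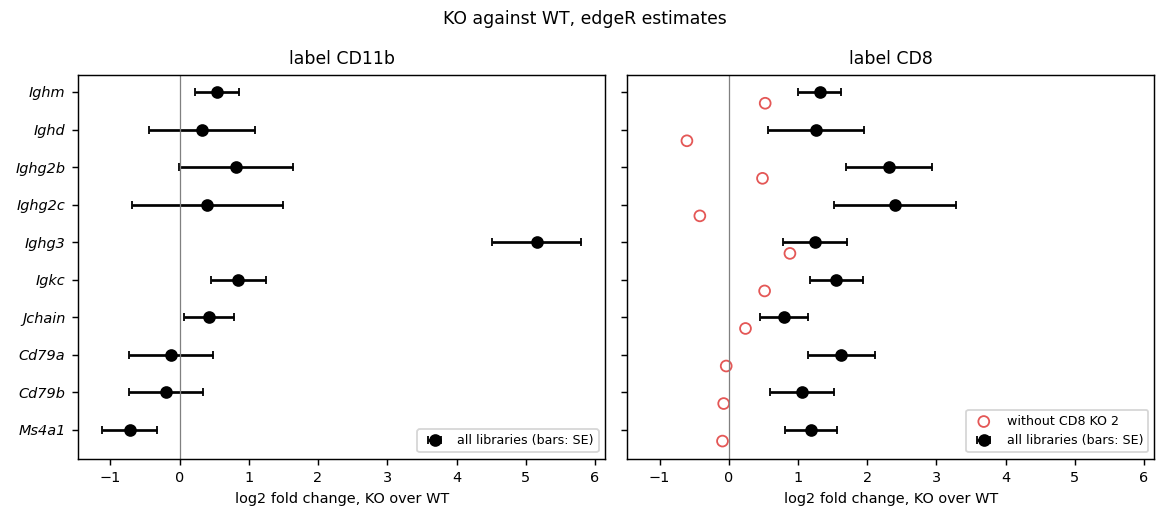
Log2 fold change of KO over WT for each of the 10 genes at the label CD11b (left) and the label CD8 (right), with filled points for the fit to all 10 libraries, bars for 1 SE, and open circles for the fit without CD8 KO 2. Ighg3 at the label CD11b lies at 5.16, and at the label CD8 the open circles lie between −0.61 and 0.88.

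Most members were lower in libraries labelled CD11b than in those labelled CD8. In WT, 6 of the 10 genes were lower at the label CD11b (15.7% of all genes were called lower): Ighg2b, Ighg3, Igkc, Jchain, Cd79a and Cd79b. In KO, 9 of 10 were lower (12.5% of all genes), with Ighg3 the exception at a log2 fold change of −1.28 ± 0.52 (SE), against −5.19 ± 0.62 in WT. The labels did not overlap, with CD11b lower, for 5 of 10 members in WT (21.7% of all genes) and 10 of 10 in KO (30.6%). Without CD8 KO 2, 4 of 10 were called lower in KO, and without CD11b KO 1, 5 were, each beside 9.71% of all genes called lower in that fit. The members' median log2 fold change in KO was −2.40 with all libraries and −1.08 without CD8 KO 2, and all 10 were below 0 in both. Cd79a had log2 fold changes of −2.31 ± 0.50 in WT and −4.07 ± 0.64 in KO, and Ms4a1 of 0.22 ± 0.35 and −1.69 ± 0.43. Without CD8 KO 2 the values in KO were −2.40 for Cd79a, −0.40 for Ms4a1 and −0.91 for Ighg3. These comparisons share their libraries with those of the genotypes.

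Levels can be ranked between genes only per length of exon, in CPM per kilobase. In CD11b WT the order began with Ighm at 112 ± 13.9 (SD, n = 3) and Igkc at 98.1 ± 29.4 CPM per kilobase, neighbours that differed by less than their spread. Ighg3 was last there at 0.0827 ± 0.0603 CPM per kilobase, below Ighg2b at 0.488 ± 0.540, again within the spread. In CD11b KO, Ighg3 was the fourth at 3.20 ± 0.586 CPM per kilobase (SD, n = 2), below Jchain at 6.37 ± 4.19, which it did not differ from beyond the spread, and above Ighd at 1.73 ± 0.649.

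In CD8 WT the order was Igkc at 295 ± 116, Ighm at 186 ± 91.5, Jchain at 9.59 ± 1.74, Cd79b at 6.94 ± 0.735 and Cd79a at 5.77 ± 2.81 CPM per kilobase (SD, n = 3), followed by the others at 2.08 to 4.18. From Cd79b down, and between Igkc and Ighm, neighbours differed by less than their spread. In CD8 KO, Igkc led at 865 ± 629 and Ighm followed at 463 ± 277 CPM per kilobase (SD, n = 2), and no neighbours among the 8 genes from Ighg2b at 19.2 ± 19.6 to Ms4a1 at 5.60 ± 4.66 differed beyond their spread.

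Set against Cd79a and Cd79b, the antibody genes did not keep 1 ratio across libraries. For each count of Cd79a plus Cd79b there were 0.139, 0.0282 and 0.0185 counts of Ighg3 in CD11b WT, 3.10 and 1.47 in CD11b KO, 0.665, 0.404 and 0.189 in CD8 WT, and 0.864 and 0.314 in CD8 KO. Both CD11b KO libraries were above all 8 others, the CD8 libraries among them. The same ratio for Ighm was 37.5 to 88.6 in the 5 libraries labelled CD11b and 12.1 to 28.7 in the 5 labelled CD8. For Jchain it was 2.44 to 4.95 against 0.729 to 1.62, and for Ms4a1 2.67 to 6.75 against 0.609 to 0.953. None of these 3 ranges overlapped between labels, so libraries labelled CD11b had fewer Cd79a and Cd79b counts for each count of Ighm, Jchain or Ms4a1. The other antibody genes did not separate in this way. Igkc overlapped, at 7.09 to 30.6 at the label CD11b against 6.51 to 12.8 at the label CD8, as did Ighd, Ighg2b, Ighg2c and Ighg3. The denominators at the label CD11b were small, 29 to 71 counts.

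**Figure D3:**
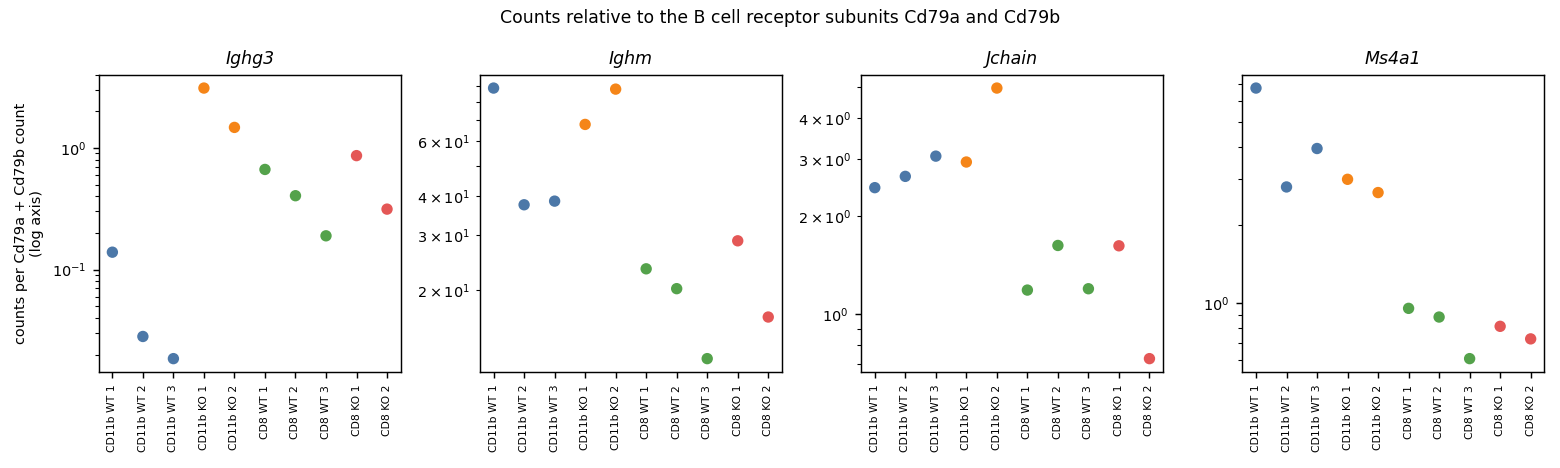
Counts of Ighg3, Ighm, Jchain and Ms4a1 for each count of Cd79a plus Cd79b, with 1 point per library coloured by group, each panel on its own log axis. The CD11b KO libraries are highest for Ighg3 at 1.47 and 3.10, and for the other 3 genes all libraries labelled CD11b lie above all labelled CD8.

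Among heavy chain constant counts, Ighm made up 81.3% to 97.2% in each library. The class-switched genes (Ighg, Ighe and Igha together) made up 2.25%, 4.84% and 10.2% in CD11b WT, 9.18% and 2.97% in CD11b KO, 7.90%, 14.0% and 17.5% in CD8 WT, and 9.37% and 12.3% in CD8 KO. The groups overlapped between genotypes at both labels. Igha, the IgA heavy chain, was the most counted switched gene in CD11b WT 2 and 3, CD8 WT 2 and 3 and CD8 KO 1. Its share was highest in CD8 WT 3, at 14.6% of heavy chain counts.

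The Ighg3 share of heavy chain counts was 0.152% (95% Wilson interval 0.0651 to 0.356), 0.0711% (0.0195 to 0.259) and 0.0420% (0.00742 to 0.238) in CD11b WT. It was 4.11% (3.36 to 5.02) and 1.61% (1.30 to 1.99) in CD11b KO. The CD8 WT shares were 2.54%, 1.70% and 1.28% and the CD8 KO shares 2.70% and 1.64%. The intervals of the CD11b WT libraries lay below those of the other 7, and they cover counting error only. Among Ighg counts alone, Ighg3 made up 5.56% to 10.2% in CD11b WT and 64.6% and 78.3% in CD11b KO, against 16.2% to 46.7% at the label CD8. Ighg1 was at most 0.453 CPM in every library labelled CD11b, and Ighe, which did not pass the filter, was at most 1.51 CPM in all 10.

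**Figure D4:**
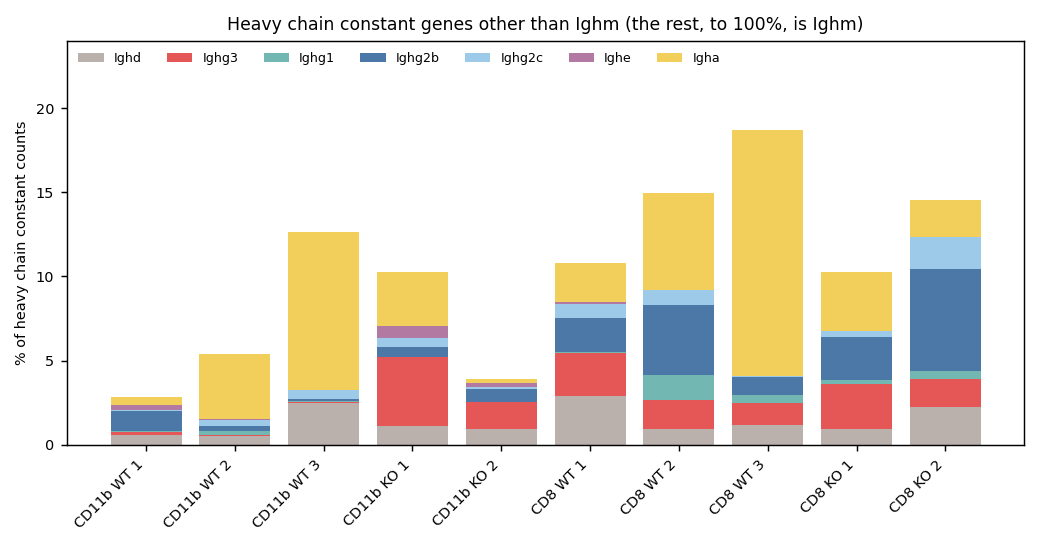
Share of heavy chain constant counts taken by each gene other than Ighm, in percent, as stacked bars from 0, with 1 bar per library. Ighg3 is barely visible in the 3 CD11b WT bars (0.152% or less) and takes 1.28% to 4.11% in the other 7.

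Light chain counts were mostly kappa. Igkc made up 68.6% to 90.8% of constant light chain counts, and the lambda genes Iglc1, Iglc2 and Iglc3 the rest. At the label CD11b none of the 3 lambda genes was called for KO against WT, with log2 fold changes of 0.33 ± 0.72, −1.10 ± 0.54 and 0.77 ± 0.63 (SE) in edgeR. Igkj1, a kappa joining segment singled out after its values were seen, had at most 2 counts in each CD11b WT library, 27 and 41 in CD11b KO, and 14 to 115 at the label CD8.

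The V segments give a second view of the same RNA, since each clone of B cells carries its own joined segments. The Ighv segments had 4.03 to 7.56 counts for every 100 heavy chain constant counts in libraries labelled CD11b, below the 9.05 to 11.1 of those labelled CD8. A few segments dominated some libraries: Ighv1-9, the leading segment of CD11b WT 1, had 145 counts there and 181 in CD8 WT 1, where it led as well. It had 0 to 5 counts in the other libraries labelled CD11b, 37 in CD8 WT 2, 89 in CD8 KO 1 and 23 in CD8 KO 2. Igkv10-96 had 96 counts in CD11b WT 1, 203 in CD8 WT 1 and 206 in CD8 KO 2. Segments were named here for their counts.

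V segment use was compared between each library labelled CD11b and each labelled CD8, as the share of Ighv and Igkv counts in common. It was 25.7% to 57.4% (median 35.9%) in the 5 pairs of the same genotype and number and 13.7% to 33.9% (median 27.7%) in the other 20 pairs. For 4 of the 5 libraries labelled CD11b, the most alike library labelled CD8 was that of the same genotype and number. The labels do not say whether such a pair came from 1 spleen, and libraries differ in how many V counts they hold.

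**Figure D5:**
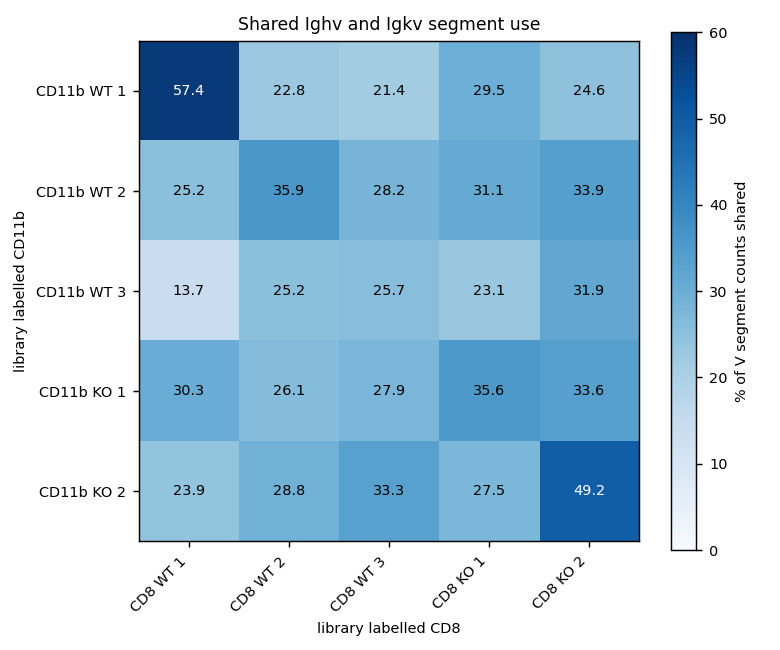
Share of Ighv and Igkv segment counts in common between each library labelled CD11b (rows) and each labelled CD8 (columns), in percent, with darker cells for more. The highest cells are CD11b WT 1 with CD8 WT 1 at 57.4% and CD11b KO 2 with CD8 KO 2 at 49.2%.

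The list of 20 other B cell genes, of which 19 were tested, holds no antibody gene. Their summed level was 95.7 to 118 CPM in CD11b WT and 96.3 to 114 CPM in CD11b KO, so it overlapped at the label where Ighg3 differed. It was 666 to 859 CPM in CD8 WT, 687 CPM in CD8 KO 1 and 1500 CPM in CD8 KO 2. Cd22 and Dtx1 made up much of that sum at the label CD8. Without them, a choice made after their values were seen, the other 18 summed to 243 to 400.1 CPM in CD8 WT, 282 and 921 CPM in CD8 KO, 76.7 to 102 CPM in CD11b WT and 82.6 and 97.0 CPM in CD11b KO. At the label CD11b edgeR called 0 of 19 between genotypes (2 at an unadjusted p under 0.05), beside 0.145% of all genes. DESeq2 and limma-voom called 0 of 19 too, beside 42 and 15 of 14528 genes. There 10 of 19 were above 0, with a median log2 fold change of 0.07. At the label CD8 edgeR called 0 of 19 (13 at an unadjusted p under 0.05), again beside 0.145% of all genes. DESeq2 and limma-voom also called 0 of 19, beside 59 and 63 of 14528 genes. There 18 of 19 were above 0, with a median of 1.09. Without CD8 KO 2 the median was 0.09 and 10 of 19 were above 0, and without CD8 KO 1 it was 1.715 and 18 of 19 were above 0. The ratio of CD8 KO 2 to CD8 KO 1 had a median of 3.39 over the 20 genes and a highest value of 10.1 (Fcrla). Over the 10 members it ran from 1.57 (Ighg3) to 13.1 (Ighg2c).

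Between labels, 15 of 19 B cell genes were called lower at the label CD11b in WT and 16 of 19 in KO, with 15.7% and 12.5% of all genes. Without CD8 KO 2, 11 of 19 were called lower in KO and 1 higher, and their median log2 fold change went from −3.74 to −2.27. Pax5, the transcription factor that maintains B cell identity, had 2.94 to 7.58 CPM over the libraries labelled CD11b, 19.7 to 49.7 CPM in CD8 WT, and 25.0 and 137 CPM in CD8 KO. Cd22, an inhibitory coreceptor, and Dtx1, a regulator of Notch signalling, were the most counted genes of the list, with 197 to 224 CPM and 214 to 259 CPM in CD8 WT. Dtx1 was the gene for which CD8 KO 2 was not the highest library, at 192 CPM.

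Of the 13 plasma cell genes, 11 were tested, and edgeR called 0 between genotypes at the label CD11b (2 at an unadjusted p under 0.05) and 1 at the label CD8. That gene was Irf4, a transcription factor also used by dendritic cells, with 227, 226 and 169 CPM in CD8 WT, 350.1 and 309 CPM in CD8 KO and a log2 fold change of 0.67 ± 0.13 (SE). The list summed to 284 to 308 CPM in CD11b WT, 310 and 320 CPM in CD11b KO, 369 to 431 CPM in CD8 WT, and 572 and 578 CPM in CD8 KO. Without Irf4, a choice made after its values were seen, the CD8 WT libraries summed to 191 to 205 CPM and the CD8 KO libraries to 222 and 269 CPM.

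At the label CD11b the median log2 fold change of the plasma cell genes was 0.04. Of the 11 tested, 9 were above 0 and 2 (Derl3 and Tnfrsf13b) below, and at the label CD8 all 11 were above 0. Sdc1, which encodes the plasma cell surface protein CD138, had 0, 0.151 and 0.0930 CPM in CD11b WT and 1.01 and 0.667 CPM in CD11b KO. Its log2 fold change was 3.20 ± 1.24 (SE) at these low levels. Mzb1, a chaperone of antibody assembly, had 0, 0.905 and 0.279 CPM in CD11b WT and 1.82 and 0.250 CPM in CD11b KO, a log2 fold change of 1.31 ± 0.92. Derl3, a protein of the endoplasmic reticulum, had a log2 fold change of −1.10 ± 1.35 (SE), and Tnfrsf13b, the receptor TACI, of −0.46 ± 0.30. Of the 2 genes that did not pass the filter, Tnfrsf17 (the receptor BCMA) was listed at 0 in CD11b WT and at 0.505 and 0.417 CPM in CD11b KO, while Fkbp11 had up to 1.21 CPM in CD11b WT and was listed at 0 in CD11b KO. Derl3, Tnfrsf17 and Fkbp11 were named after their values were seen. The part of plasma cell RNA in the Ighg3 difference was not tested.

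The 12 T cell markers summed to 9.87 to 24.1 CPM, the 7 NK cell markers to 0.706 to 6.71 CPM and the 8 neutrophil markers to 1.21 to 4.86 CPM over the 10 libraries. The 11 red pulp macrophage markers summed to 162 to 199 CPM in CD11b WT, 194 and 226 CPM in CD11b KO, 323 to 427 CPM in CD8 WT, and 512 and 534 CPM in CD8 KO, with 0 called between genotypes at either label (1 and 5 at an unadjusted p under 0.05, edgeR). The 9 plasmacytoid dendritic cell markers summed to 165 to 230 CPM over the 10 libraries, but single markers differed between labels in both directions. Siglech had 13.1 to 33.6 CPM at the label CD11b and 0.576 to 2.37 CPM at the label CD8. Ccr9 had 23.7 to 35.8 and 3.05 to 7.49 CPM, and Tcf4, the most counted, 44.1 to 70.7 and 74.6 to 97.3 CPM. In WT edgeR called 4 higher and 1 lower at the label CD11b, beside 1999 and 2286 of 14528 genes. Between genotypes it called Cox6a2 of the 9 at the label CD8. That gene had at most 0.815 CPM in the CD8 WT libraries against 5.93 CPM in CD8 KO 1 and 8.88 CPM in CD8 KO 2. The part of these cells in the values of the 10 genes was not tested.

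Of 20 B cell receptor signalling genes, edgeR called 0 between genotypes at either label (0 at the label CD11b and 2 at the label CD8 at an unadjusted p under 0.05), and their median log2 fold changes were 0.05 and 0.04. Blnk, the adaptor between Syk and its downstream enzymes, was highest in CD8 KO 2 at 33.0 CPM, against 8.07 CPM in CD8 KO 1, and was named for that after its values were seen. Most are used by myeloid cells too, and their summed level ran from 5012 to 5219 CPM in libraries labelled CD11b and from 7057 to 7338 CPM in those labelled CD8. Between labels in WT, 13 were called lower and 4 higher at the label CD11b, beside 2286 lower and 1999 higher of the 14528 genes. Syk, the kinase that binds the phosphorylated receptor chains, had a log2 fold change of −1.46 ± 0.09 (SE), and Cd81, a tetraspanin of the cell surface, of 3.49 ± 0.16.

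Across the 10 libraries, the genes most like the mean log2 CPM of Cd79a, Cd79b and Ms4a1 were Fcrl5, Ablim1, Ets1, Ralgps2, AU020206, Nfatc1, Ppp1r16b and Ski, with Pearson correlations of 0.967 down to 0.943 among 12218 genes searched. Fcrl5, an Fc receptor-like protein of B cells, had 0.0759 to 0.830 CPM at the label CD11b, 0.996 to 4.64 CPM in CD8 WT, and 3.05 and 15.9 CPM in CD8 KO. The genes most like Ighg3 were Heatr5b, Ccnt1, E230029C05Rik, Gm43788 and Gm27010, at 0.952 down to 0.929. Heatr5b stood at 26.0 to 27.1 CPM in CD11b WT and 29.8 to 45.1 CPM in the other 7 libraries, a far smaller span than that of Ighg3. The libraries share 4 groups and their depth differs, so these correlations (n = 10 libraries) are descriptions.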

How the data were processed

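RNA of sorted spleen dendritic cells was made into strand-specific total RNA libraries by a low-input kit, per the labels' protocols. The submitters' processing notes name STAR 2.5.0a and the build GRCm38, and the annotation release is not given in the sources used here. The authors deposited raw gene counts, of which the column for the strand of the kit was used. Of 53379 gene IDs, 53274 were found in GENCODE M21, which gave symbols, positions and exon lengths. The labels name no molecular identifiers, so intervals cover counting error only.

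CPM used TMM-scaled library sizes. Genes left by filterByExpr (14528) were fitted with 4 group means over all 10 libraries in edgeR 4.0.16 (glmQLFit, glmQLFTest), with Benjamini-Hochberg adjustment over all genes and calls under 0.05. The fit was tested on simulated data. Alternatives were RLE size factors, other filters, unstranded counts, library sizes without immunoglobulin genes, fits to the groups compared, a replicate block, left-out libraries, DESeq2 1.42.0 and limma-voom (limma 3.58.1). Scripts ran in R 4.3.3 and Python 3.11.15. The members and lists were chosen with earlier results of these data known. Besides the members, the text names Atg16l1, subset markers, other constant genes, the 6 most counted and any called genes of each list, and the genes most alike among those with a mean of at least 1 CPM. Genes named outside that rule are said to be so, except Fcrla, named as an extreme.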

Additional observations from a re-analysis of the deposited data

How the results depend on the processing

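Among the 10 members, the number called by edgeR between genotypes at the label CD11b was 1 and became 3 with no filter on low counts and 0 with limma-voom. Over all genes, the calls there were 21 of 14528, then 71 of 31563 and 15 of 14528. At the label CD8 the number of members was 0 and became 6 with no filter, 2 with only the groups compared and 2 with limma-voom. Calls over all genes rose too, from 21 of 14528 to 142 of 31563, 63 of 13063 and 63 of 14528. For the difference of the genotype effects it was 0 and became 4 with no filter and 1 with DESeq2. For the label comparison in KO the members' median log2 fold change was −2.40 and became −1.08 without both CD11b WT 1 and CD8 KO 2. Among the 19 B cell genes tested (20 with no filter), 0 were called at the label CD8 and 0 for the difference. These became 10 and 1 with no filter, beside the 142 and 41 of 31563 genes given above. The cause was not tested.

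With 1 WT library left out in turn, 1 member was called at the label CD11b each time, beside 14 to 29 of all 14528 genes. At the label CD8, 0 to 1 were called (1 without CD8 WT 1), beside 18 to 32 genes. For the difference, 0 to 1 were called (1, higher, without CD8 WT 3), beside 3 to 6 genes. For the labels in WT, 5 to 9 were called lower, beside 1921 to 2127 genes, and in KO 9 to 10, beside 1697 to 1933. B cell genes called numbered 0 to 0, 0 to 1, 0 to 0, 12 to 15 and 16 to 17 in the same order. A fit without a KO library leaves a lone library in its group, which was assumed to vary like the others.

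The replicate numbers were not taken to pair the libraries, since no correlation of their residuals was over 0.1. The 5 pairs of the same genotype and number correlated at 0.02 to 0.05, and the 8 of the same genotype and another number at −0.04 to 0.01. Within a genotype each library was thus most like the one with its own number, a hint from the data and not from the design. Pairs of different genotypes, which cannot share a mouse, reached 0.06 (CD11b WT 1 with CD11b KO 1). In a group of 2 libraries the residuals mirror each other, so the KO pairs at 0.04 and −0.04 hold 1 value. With a replicate block, 1 member (Ighg3) was called for the difference of the genotype effects. Calls over all genes rose there too, from 3 to 8 of 14528. The other counts of members and B cell genes stayed within 1.5 times their value. Apart from the changes given above for no filter, limma-voom, the groups compared and DESeq2, counts under alternatives that kept every library stayed within 1.5 times too. Of the members' fold changes under the alternatives, 877 moved by less than their SE, 113 by more, and no called value changed sign. These include fits that left out a library of neither group compared, which barely moves the value. Values that were not called did change sign with some 1 library left out, for 8 members at the label CD11b and 5 at the label CD8. Depth limits Ighg3 and Ighg2c at the label CD11b, where some libraries held 1 to 5 counts.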
